A study of Mus musculus with 32 samples.

Results

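The RNA–DNA interactions of mouse embryonic stem cells fixed with 1% formaldehyde (1FA) were compared with those of the same line fixed with 2% formaldehyde (2FA). All interactions of the 3 mESC 1FA and the 3 mESC 2FA libraries were taken, 14736418 of the 25231081 listed for the 15 libraries of the series, and libraries with the same replicate number were treated as pairs. An interaction was a distinct combination of RNA tag position, strand, RNA gene and DNA tag position within a library. The cells were R08, a male embryonic stem cell line grown without feeder cells in medium with LIF, and neither group carried a transgene or received a drug. Per the study's methods the DNase I digestion of the chromatin also ran longer for 2FA than for 1FA, so fixative concentration and digestion time cannot be told apart in any comparison of the groups. The replicates were batches of cells of different passage number. Both groups come from a single cell line.

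In RADICL-seq an adapter bridges RNA and nearby DNA inside fixed nuclei, and sequencing both ends gives the origin of an RNA and the locus it was near. Formaldehyde links proteins to nucleic acids and to each other, and RNA can be captured at the gene it was copied from or at other loci. A few abundant nuclear noncoding RNAs, such as Malat1 of the nuclear speckles and the small nuclear RNAs of the spliceosome, touch many chromosomes instead.

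The short tags show where on these noncoding RNAs the adapter was joined, as far as the tags map uniquely. Per the methods only uniquely mapped tags were kept, so stretches that an RNA shares with other loci would be missing. The windows of 27 bases below are the most frequent tag positions on the RNA strand, read from the GRCm38.p6 reference, with the central base of the tag in capitals. They are shown because 1 position supplied most of the listed tags of Gm22973, whereas Malat1 was captured along its whole length. Whether other positions of Gm22973 can be mapped uniquely was not tested. Each window occurs once on the reference chromosomes.
Gm22973, chr12:59040472-59040498, plus strand: ccactccacgtatCaacctggtattgc
Snord118, chr11:69073535-69073561, plus strand: acaacatcctggtTgctcctatctgat
Malat1, chr19:5799224-5799250, minus strand: aaaaataatgtcaTgtctccatgggga
Malat1, chr19:5796810-5796836, minus strand: aggcactgaaggcTtaatgtaggacag

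Gm22973, annotated as a small nuclear RNA gene of 191 nt at chr12:59040335-59040525, gave 577835 interactions over the 6 libraries, more than any other transcript. The position shown, centred 151 nt from the start of the gene, held 95.9%, 96.8% and 97.0% of its tags in 1FA and 96.8%, 97.1% and 97.3% in 2FA. The window of Snord118, the U8 small nucleolar RNA of ribosome maturation, ends at the last base of the gene and held between 50.5% and 54.1% of its tags in every library. No position of Malat1 dominated in this way. The first Malat1 window above held 1.61%, 3.24% and 2.15% of Malat1 tags in 1FA and 2.39%, 3.17% and 4.04% in 2FA. The second held 3.10%, 1.14% and 1.51% in 1FA and 2.81%, 0.752% and 2.90% in 2FA, so that both varied between libraries of the same group.

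The libraries listed 2667971, 2441619 and 2832717 interactions in 1FA and 2243265, 2035499 and 2515347 in 2FA. Only interactions of significant pairs of a transcript and a 25-kb DNA bin are listed, and these pairs were called on the pooled replicates of each group, so these totals are not the sequencing depth and the 3 replicates of a group share 1 list of pairs. The paper's supplement reports more uniquely mapped reads for each 1FA library than for any 2FA library, so the number of reads differed along with the fixation. The lists held 289205 pairs in 1FA and 241787 in 2FA, and 201894 pairs stood on both lists, 69.8% of the first and 83.5% of the second. Overlap was lowest for distant contacts. In cis under 1 Mb, 76.4% of the 1FA pairs and 87.4% of the 2FA pairs were on both lists, compared with 51.7% and 71.05% in cis beyond 1 Mb and 53.5% and 68.5% between chromosomes. The 87311 pairs listed in 1FA only had a median of 9 interactions over the pooled libraries, whereas pairs on both lists had a median of 19 in 1FA and 17 in 2FA. The 39893 pairs listed in 2FA only also had a median of 9. The main comparisons below are therefore given over all listed pairs and over the pairs on both lists. A transcript or bin at 0 on a list may still have been captured.

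The first 1FA library stood apart in its noncoding RNAs. It held 67441 Malat1 interactions against 39879 and 38130 in the other 1FA libraries, and 73919 Gm22973 interactions against 113253 and 111028. Counts of calls without each pair of libraries are given with the other alternatives. Markers of cell types were counted without scaling for gene length. Of 26 pluripotency transcription factors, 22 were listed, with 60630 interactions in all, whereas 14 early germ layer and neural markers together gave 90 interactions, 12 fibroblast markers 120 and 10 trophoblast markers 64. Most of the sum for the pluripotency factors came from a few genes, first Esrrb with 5199, 4183 and 4374 interactions in 1FA. The core factors Pou5f1, Sox2 and Nanog had low counts, such as 23, 23 and 26 in 1FA and 41, 36 and 30 in 2FA for Pou5f1. Primitive endoderm markers, which a stem cell culture can hold at a low level, gave 20783 interactions over 14 genes, mostly from Lama1, Col4a1 and Col4a2. Col4a1, a basement membrane collagen, gave 260, 817 and 920 interactions in 1FA and 126, 712 and 752 in 2FA, and was low in the first library of both groups. None of the 10 primitive endoderm markers tested was called, with a median log2 fold change of -0.34 beside 0.00 over all transcripts. In pairs 1, 2 and 3 the log2 difference was -0.86, 0.06 and -0.18 for Col4a1 and -0.89, 0.05 and -0.30 for Col4a2. For Lama1 it was 0.01, -0.18 and -0.48, so the pairs differed and the fall was not common to all of them. A lower count can reflect fewer cells of a type, less RNA per cell or fewer contacts per RNA, which cannot be told apart here.

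Malat1, a long noncoding RNA of 6983 nt at chr19:5795690-5802672 that is retained in nuclear speckles, showed the largest fall among called transcripts with a mean of 100 or more interactions. Its interactions numbered 67441, 39879 and 38130 in 1FA and 19604, 14502 and 17106 in 2FA. Every 2FA library lay below every 1FA library. In scaled counts, the 3 libraries of one group all lay above those of the other for 1756 of 9837 transcripts (17.9%). As a share of all interactions Malat1 made up 2.53%, 1.63% and 1.35% in 1FA and 0.874%, 0.712% and 0.680% in 2FA, and the log2 fold change was -1.28 ± 0.09 (SE, n = 3 pairs, limma adjusted p = 2.4e-08). Malat1 also passed without the pairing (limma adjusted p = 0.0368), and without the first pair its log2 fold change was -1.13.

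Most of the fall lay in bins that only the 1FA list held. Malat1 was listed with 5670 bins in 1FA and 2520 in 2FA, of which 1636 were shared, 28.9% of the first and 64.9% of the second. Within the shared bins it had 23604, 13701 and 12802 interactions in 1FA and 13345, 10331 and 11986 in 2FA. The groups overlapped there, since the third 1FA library lay below the first 2FA library. The log2 fold change there was -0.36 ± 0.10 (adjusted p = 0.218) and was not called. The share of Malat1 interactions that reached other chromosomes was 92.6%, 92.5% and 92.0% in 1FA and 89.0%, 86.4% and 85.9% in 2FA. Of its interactions in cis, 76.5%, 72.0% and 70.1% lay beyond 100 kb in 1FA, compared with 62.1%, 48.2% and 48.3% in 2FA. This nearer range of Malat1 was also found in the shared bins, with 62.7%, 57.2% and 54.5% against 57.1%, 43.1% and 43.8% (log2 ratio of far to near -0.59 ± 0.10, adjusted p = 5.8e-05), and Malat1 was the only transcript called for distance there. Without the pairing of libraries no transcript was called there (124 at an unadjusted p under 0.05 by limma).

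**Figure D1:**
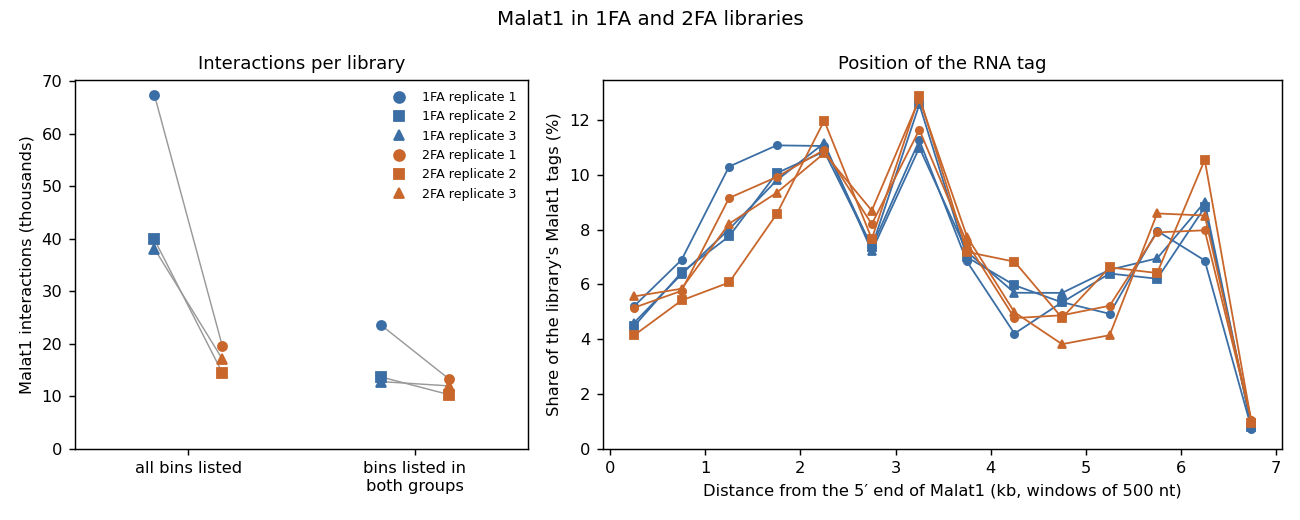
Left, Malat1 interactions per library in units of 1000, over all listed bins and over the bins listed in both groups, with grey lines joining libraries of the same replicate number. Right, the share of each library's Malat1 tags in windows of 500 nt from the 5′ end of the transcript; the window from 3001 to 3500 nt holds 10.99% to 12.9% of tags in every library.

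The tags of Malat1 were spread along the whole transcript in all 6 libraries, and single windows varied between libraries of a group. The window from 3001 to 3500 nt held 11.3%, 12.6% and 10.99% of the tags in 1FA and 11.6%, 12.9% and 12.8% in 2FA. The last 483 nt, from 6501 to 6983, held between 0.738% and 1.04% in every library. Pearson's r between profiles, over 14 windows of the same transcript, ran from 0.770 to 0.985.

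Gm22973 did not follow Malat1. It had 93518, 93611 and 92506 interactions in 2FA, values that lay between those of the 1FA libraries, and the log2 fold change was 0.12 ± 0.11 (adjusted p = 0.569). It was listed with 9256 bins in 1FA and 9437 in 2FA, and 6609 were shared. The make-up of the listed contacts between chromosomes differed, with Malat1 listed in fewer bins in 2FA and Gm22973 not called. Gm22973 accounted for 49.1%, 67.3% and 70.4% of them in 1FA and for 79.5%, 78.8% and 78.3% in 2FA, and Malat1 for 42.4%, 22.4% and 22.8% and then for 15.2%, 10.8% and 12.8%. Neither pair of ranges overlapped between the groups. Together the 2 RNAs supplied between 89.7% and 94.7% of these contacts in every library. A smaller share of one therefore leaves a larger share for the other. These shares cover all listed pairs and were not computed over pairs on both lists, where Malat1 was not called.

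Of 30 nuclear long noncoding RNAs on a list chosen for this comparison, 20 were tested and 4 were called, all lower in 2FA, compared with 5.13% of all 9837 transcripts tested. The median over the 20 was -0.12 and 4 had a positive value. Neat1, the scaffold of paraspeckles that is transcribed next to Malat1, fell from 1404, 919 and 876 interactions to 642, 571 and 704 (log2 fold change -0.53 ± 0.10, adjusted p = 0.00526). Every 2FA library of Neat1 lay below every 1FA library, beside 17.9% of all transcripts with the groups apart in either direction. Unlike Malat1, Neat1 was captured almost wholly on its own chromosome, with 32, 13 and 12 interactions between chromosomes in 1FA and 10, 10 and 8 in 2FA. Dleu2, a host gene of microRNAs, changed by -0.50 ± 0.11 (adjusted p = 0.0104) and Mirg, from the imprinted Dlk1–Dio3 region, by -0.49 ± 0.14 (adjusted p = 0.042). In pairs on both lists none of these 4 was called, and Neat1 had a value of -0.47 (adjusted p = 0.126). Without the pairing of libraries Malat1 alone of the 4 was called. Pvt1 and Kcnq1ot1, among the most captured on the list, had log2 fold changes of 0.08 (adjusted p = 0.597) and -0.17 (adjusted p = 0.24), and 0.02 and -0.17 in pairs on both lists.

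Small RNAs of the nucleus gave 1 call in each of 2 lists, beside the 5.13% called over all transcripts. Of 20 small nuclear and RNase RNAs, 8 were listed and 5 tested, and Rn7sk, the RNA that holds the elongation factor P-TEFb inactive, was higher, with 26, 64 and 39 interactions in 1FA and 46, 86 and 61 in 2FA (log2 fold change 0.80 ± 0.19, adjusted p = 0.0146). Rn7sk was not called in pairs on both lists (log2 fold change 0.62, limma adjusted p = 0.32) or without the pairing of libraries (adjusted p = 0.376). Rmrp, the RNA of RNase MRP, had 775, 1057 and 733 interactions in 1FA and 553, 810 and 730 in 2FA and was not called (adjusted p = 0.491), nor in pairs on both lists (adjusted p = 0.253). Of 24 guide RNAs of ribosomal and spliceosomal modification, 17 were listed and 12 tested, and Snord14e alone was called, with 324, 175 and 155 interactions in 1FA and 100, 142 and 105 in 2FA (log2 fold change -0.67 ± 0.18, adjusted p = 0.0301). It was not called in pairs on both lists (log2 fold change -0.66, limma adjusted p = 0.274) or without the pairing (adjusted p = 0.349). Snord118 was not called and went both ways between pairs, with 2626, 5738 and 3191 interactions and then 1104, 3836 and 3439 (adjusted p = 0.0879, and 0.586 in pairs on both lists).

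Over all transcripts, 505 of 9837 were called, 193 higher and 312 lower in 2FA. Scaled by the library total instead of TMM factors, the split was 260 higher and 230 lower, since that scaling moved the median of all transcripts from 0.00 to 0.04. Among called transcripts averaging 100 or more interactions per library that moved 1 way in all 3 pairs, 57 rose and 215 fell. Over all transcripts tested 1.96% were called higher and 3.17% lower. The share of transcripts tested at the minimum of 100 was not computed, and this split was not recomputed with scaling by the total. The largest falls after Malat1 were in transcripts of mixed function. Hnrnpk, which encodes a nuclear RNA-binding protein, had 155, 130 and 176 interactions in 1FA and 60, 53 and 94 in 2FA (log2 fold change -1.002 ± 0.14, adjusted p = 0.00057). Every 2FA library of Hnrnpk was below every 1FA library, beside 17.9% of all transcripts with the groups apart in either direction. Eif4a1, a helicase of translation initiation, fell from 256, 115 and 128 to 103, 65 and 78 interactions (log2 fold change -0.76 ± 0.14, adjusted p = 0.00395). Brca2, which acts in homologous recombination, fell from 249, 173 and 229 to 125, 96 and 120 (log2 fold change -0.74 ± 0.12, adjusted p = 0.00122). The kinase gene Wnk2 (-0.81), the long noncoding RNA 2610035D17Rik (-0.80), Prrc2a (-0.77), the coactivator gene Pprc1 (-0.74), the Wnt signalling gene Dvl2 (-0.69), Ube2v1 (-0.68), the cilium gene Nphp4 (-0.68) and Snord14e (-0.67) completed the 12 largest falls on the log2 scale.

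The 12 largest rises lay between 0.52 and 0.78 on the log2 scale. Tmem167 had 88, 83 and 141 interactions in 1FA and 127, 119 and 240 in 2FA (log2 fold change 0.78 ± 0.13, adjusted p = 0.00122). Dstn, which encodes an actin-depolymerizing factor, rose from 128, 178 and 201 to 188, 238 and 287 (log2 fold change 0.68 ± 0.11, adjusted p = 0.00122). Macrod2, a gene of 1998 kb, rose from 314, 339 and 423 to 365, 381 and 659 (log2 fold change 0.52 ± 0.09, adjusted p = 0.00335). Raw counts of the groups overlapped for all 3, and scaled to the library totals the 2FA libraries were the higher ones throughout. Aoah (0.70), Pcyt1b (0.69), Arpp19 (0.65), Ano3 (0.60), Eda2r (0.58), Fam162a (0.56), the p53 target Trp53inp1 (0.56), the potassium channel gene Kcnt2 (0.54) and the zinc transporter gene Slc30a5 (0.52) were the others of the 12 largest rises on the log2 scale.

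These changes were smaller over pairs on both lists. Of the 505 transcripts called, 466 were tested there and 461 had the same sign, while the median size of the log2 fold change went from 0.56 to 0.34. Pairs on both lists held 87.1% to 93.9% of each library's interactions, so most counts were the same in both fits. The 505 were chosen on their values over all pairs, so neither the signs nor the sizes are an independent check. Only 8 of 9449 transcripts passed (0.0847%), all lower in 2FA. These 8, named after their values were seen, were Ski, Rcc2, Pgs1, Top2a, Prrc2b, Mybl2, Prrc2a and Igsf21. Ski, a repressor of TGF-β signalling at chr4:155154075-155222592, had 1584, 1325 and 1320 interactions in shared pairs in 1FA and 977, 872 and 843 in 2FA (log2 fold change -0.57 ± 0.07, adjusted p = 0.0103). Top2a, the topoisomerase of dividing cells, had 535, 405 and 434 and then 336, 252 and 284 (log2 fold change -0.57 ± 0.09, adjusted p = 0.0182). For both genes every 2FA library was below every 1FA library in these counts, which are not scaled for library size. Over all listed pairs, scaled counts of the groups were apart in either direction for 17.9% of transcripts. None of the 8 passed without the pairing of libraries, where 3 of 9837 transcripts were called (0.0305%), 2 higher (0.0203%) and Malat1 lower (0.0102%).

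**Figure D2:**
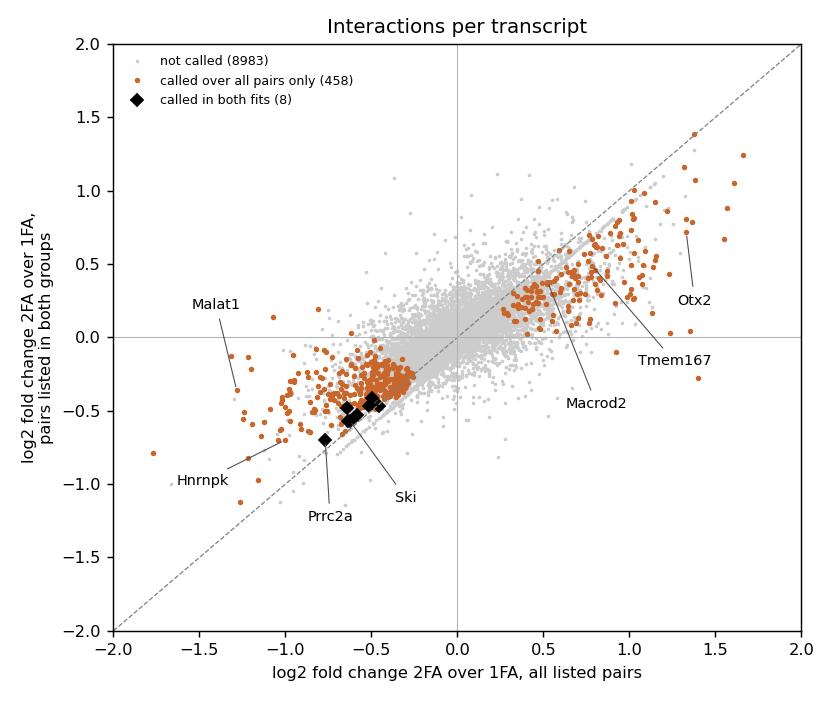
Each point is 1 of 9449 transcripts tested in both fits; the x axis gives its log2 fold change of interactions, 2FA over 1FA, over all listed pairs and the y axis the same over pairs listed in both groups, and 1 transcript lies outside the frame. Of the transcripts called over all pairs (orange, 458), most lie between the dashed line of equal values and 0 on the y axis, and the 8 called in both fits (black) are all lower in 2FA.

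A list of 22 transcripts held those of partner proteins of Malat1 and Neat1 and of their gene neighbours. Of these, 20 were tested, 7 were called, all lower, compared with 3.17% of all transcripts called lower, and 1 had a positive value (49.9% over all transcripts), with a median of -0.26 beside 0.00 over all transcripts. Beside Hnrnpk these included Son and Srrm2, which encode core proteins of nuclear speckles, Sfpq and Rbm14 of the paraspeckles, and Hnrnpu. Son had 591, 485 and 561 interactions in 1FA and 368, 259 and 379 in 2FA (log2 fold change -0.54 ± 0.09, adjusted p = 0.00176). Srrm2 had 636, 449 and 535 and then 392, 281 and 320 (log2 fold change -0.52 ± 0.09, adjusted p = 0.00219). In the pairs on both lists the median was -0.19 and none was called, and none was called without the pairing of libraries. The list was chosen with the fall of Malat1 known and is not independent evidence of its direction.

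Pluripotency and stress genes gave 1 and 2 calls, beside the 5.13% called over all transcripts. Of the 26 pluripotency factors, 19 were tested with a median of 0.07, and Otx2, a factor of the exit from naive pluripotency, was the one called, with 3, 16 and 8 interactions in 1FA and 9, 19 and 29 in 2FA (log2 fold change 1.33 ± 0.38, adjusted p = 0.0459). Esrrb, the most captured, had 5199, 4183 and 4374 interactions in 1FA and 4153, 3537 and 3782 in 2FA (log2 fold change -0.08, adjusted p = 0.57). Of 29 stress and immediate early genes, 15 were tested with a median of 0.06, and 2 were called, both lower. Ier2 had 39, 40 and 36 interactions in 1FA and 17, 16 and 18 in 2FA (log2 fold change -0.97 ± 0.25, adjusted p = 0.0266). Egr1, lower in pairs 2 and 3, had 58, 167 and 160 and then 52, 64 and 81 (log2 fold change -0.66 ± 0.18, adjusted p = 0.0349). No member of either list was called in pairs on both lists or without the pairing.

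Most of the 10 most captured transcripts were not called. Fgfr2 gave 126300 interactions over the 6 libraries and had a log2 fold change of -0.11 ± 0.08 (adjusted p = 0.415). Wwox, Jarid2, Msi2, Exoc4 and Arl15 had values between -0.16 and 0.08 and were not called either. Gm20388, an annotated gene of 4435 kb that spans other genes, was the exception beside Malat1. It had 14194, 13649 and 13500 interactions in 1FA and 10701, 9591 and 9789 in 2FA (log2 fold change -0.28 ± 0.07, adjusted p = 0.031), and -0.26 in pairs on both lists (adjusted p = 0.168).

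The part of the RNA that was captured differed between the groups over all pairs and over pairs on both lists. Coding sequence (CDS) made up 6.48%, 4.78% and 4.98% of the interactions in 1FA and 4.99%, 3.68% and 3.51% in 2FA, lower in every pair by 1.35 percentage points ± 0.217 (SD, n = 3). The 5′ untranslated region went from 1.34%, 0.984% and 1.04% to 1.04%, 0.865% and 0.805%. Introns went the other way, from 80.3%, 81.1% and 82.2% to 82.3%, 83.1% and 84.5%, and the 3′ untranslated region rose from 2.99%, 3.20% and 3.07% to 3.14%, 3.46% and 3.30%. The direction was the same in all 3 pairs for each, for which the paired exact permutation test gives p = 0.25 (two-sided), the smallest it allows with 3 pairs. The same directions held in all 3 library pairs when only contacts on both lists were counted, where CDS went from 6.53%, 4.82% and 5.00% to 5.08%, 3.74% and 3.58%. The remaining exon tags, from exons without a coding or untranslated label, went from 8.90%, 9.95% and 8.66% to 8.48%, 8.89% and 7.84%, and without Malat1 the pairs differed by 1.14, -0.221 and -0.211 points.

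The fall of CDS tags relative to intron tags was found within single transcripts. This fit was added after the shares had been seen. Of 1448 transcripts with at least 20 CDS and 20 intron tags per library in the mean, 1386 (95.7%) had a lower ratio of CDS to intron tags in 2FA, with a median log2 difference of -0.45, and 383 (26.5%) were called, all lower. The median was -0.41, -0.40 and -0.52 in pairs 1, 2 and 3. Over pairs on both lists 378 of 1316 (28.7%) were called, again all lower, with a median of -0.46. Neither fit called any transcript for CDS without the pairing of libraries, and the first called none without the third pair. For the 5′ untranslated region 33 of 197 transcripts were called (16.8%), all lower, with a median of -0.37, but 0 without the pairing of libraries (25 at an unadjusted p under 0.05 by limma) and 0, 2 and 0 without pairs 1, 2 and 3. The 3′ untranslated region showed no such fall, with a median of 0.07 over 899 transcripts and none called (87 at an unadjusted p under 0.05). The minimum of 20 was a mean over the 6 libraries, so a transcript could reach it through 1FA alone. Pkp4 did so, with 73, 16 and 30 tags of the 5′ untranslated region in 1FA and 31, 8 and 14 in 2FA. The counts of calls for CDS and for the 5′ untranslated region include such transcripts.

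Named genes show the size of this difference. In Zfp42, which encodes the pluripotency marker Rex1, CDS tags made up 17.8%, 9.94% and 11.5% of CDS and intron tags together in 1FA and 8.90%, 4.09% and 7.92% in 2FA (log2 difference -1.03 ± 0.21, adjusted p = 0.0191). In Jarid2, a subunit of the Polycomb complex PRC2, they made up 3.39%, 1.87% and 1.92% and then 2.38%, 1.06% and 1.32% (log2 difference -0.64 ± 0.11, adjusted p = 0.0191). In Agps, an enzyme of ether lipid synthesis and the largest fall among those with at least 100 tags, they made up 6.89%, 4.16% and 4.29% and then 2.94%, 1.12% and 2.28% (log2 difference -1.34 ± 0.22). These shares came from 48, 26 and 35 CDS tags of Agps in 1FA and 16, 6 and 18 in 2FA. The first library of each group was the highest of its group in all 3 genes, and in each pair the 2FA library was the lower one. Of the 12 largest falls on the log2 scale, only Sfswap (-1.16), the actinin gene Actn1 (-1.12) and Ppp1r12a (-1.10) averaged at least 20 CDS tags in 2FA too. These were also called over pairs on both lists. The others, among them Agps, Abcc5 (-1.13), Ttc27 (-1.13) and Vps13a (-1.06), reached that minimum through 1FA alone, so their values are given with no test. Over all transcripts 95.7% had a lower ratio and 26.5% were called. Of 8 pluripotency factors tested all had a lower ratio and Zfp42 and Klf5 were called. Of 9 partner proteins and neighbours of Malat1 and Neat1 all had a lower ratio and Son was called. All 4 primitive endoderm markers tested had a lower ratio and none was called. Of the 10 most captured transcripts 4 could be tested, and Jarid2, Wwox and Msi2 were called, but not Exoc4 (adjusted p = 0.265).

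**Figure D3:**
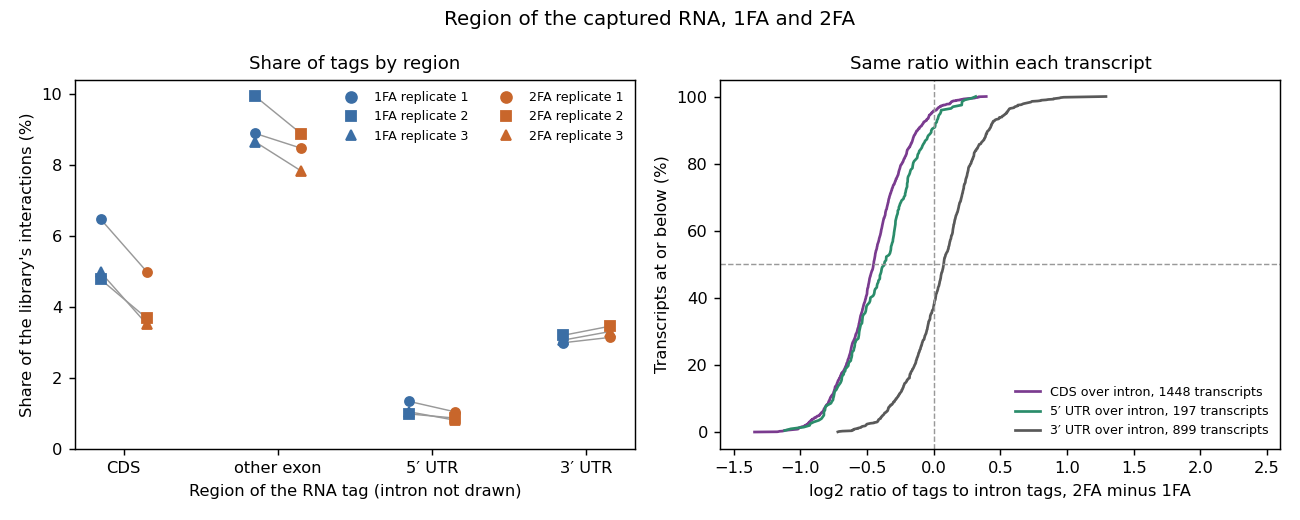
Left, the share of each library's interactions by the region of the RNA tag in percent (introns not drawn), with grey lines joining libraries of the same replicate number; CDS falls from 4.78% to 6.48% in 1FA to 3.51% to 4.99% in 2FA. Right, cumulative curves over transcripts of the log2 difference, 2FA minus 1FA, in the ratio of tags of a region to intron tags, with the CDS and 5′ untranslated curves left of 0 and the 3′ untranslated curve centred near 0.

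CDS was lower in 2FA in all 3 pairs in every distance class but the one within 1 kb. Among interactions of 100 kb to 1 Mb, CDS tags made up 6.36%, 4.55% and 4.79% in 1FA and 4.52%, 3.00% and 3.01% in 2FA, and beyond 10 Mb 2.15%, 1.39% and 1.65% and then 1.22%, 0.824% and 0.813%. Within 1 kb they made up 9.35%, 7.74% and 7.47% and then 8.21%, 8.28% and 6.19%, so the second pair went the other way. Where the DNA tag lay in the RNA's own gene, CDS made up 6.99%, 5.32% and 5.49% and then 5.68%, 4.66% and 4.17%, lower in all 3 pairs. Without pairing of the libraries no transcript passed for the CDS ratio (295 at an unadjusted p under 0.05), and without the third pair none passed (448 unadjusted) while the median stayed at -0.42.

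Contacts in 2FA lay nearer to the gene of origin. The median cis distance was 136251, 114381 and 126812 bp in 1FA and 110693, 92495.5 and 88983 bp in 2FA, with every 2FA library below every 1FA library. Interactions within 1 kb made up 3.80%, 5.52% and 4.30% in 1FA and 4.65%, 7.41% and 6.87% in 2FA, and those of 1 to 10 kb 9.74%, 10.6% and 10.5% and then 11.4%, 11.99% and 12.7%. Those of 10 to 100 kb went from 28.3%, 28.3% and 28.5% to 29.6%, 28.97% and 29.96%. Interactions of 100 kb to 1 Mb fell from 41.1%, 38.3% and 40.1% to 39.8%, 36.7% and 36.6%. Those of 1 to 10 Mb fell from 9.57%, 8.62% and 9.31% to 8.07%, 7.80% and 7.85%, and those beyond 10 Mb from 1.92%, 1.84% and 1.83% to 1.30%, 1.47% and 1.39%. All 7 classes moved in the same direction in every pair (paired exact permutation test, p = 0.25 each, adjusted p = 0.25 over the family). Contacts between chromosomes went from 5.51%, 6.73% and 5.44% to 5.12%, 5.69% and 4.57%, but without Malat1 the pairs differed by 1.13, -0.196 and -0.245 percentage points.

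The farthest classes did not differ in 1 direction over pairs on both lists. Within pairs on both lists, interactions beyond 10 Mb made up 0.945%, 0.935% and 0.922% in 1FA and 0.863%, 0.993% and 0.923% in 2FA, and those of 1 to 10 Mb differed by -0.359, 0.164 and -0.350 points. The nearest classes kept their direction, with 4.24%, 6.03% and 4.74% within 1 kb in 1FA and 4.80%, 7.68% and 7.02% in 2FA, and 100 kb to 1 Mb fell by 1.01, 1.29 and 3.06 points. The class of 10 to 100 kb turned direction there, with a mean difference of -0.526 points and all 3 pairs lower. Interactions whose DNA tag lay in the RNA's own gene were 29.8%, 32.0% and 31.7% of the total in 1FA and 32.6%, 36.0% and 37.8% in 2FA.

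**Figure D4:**
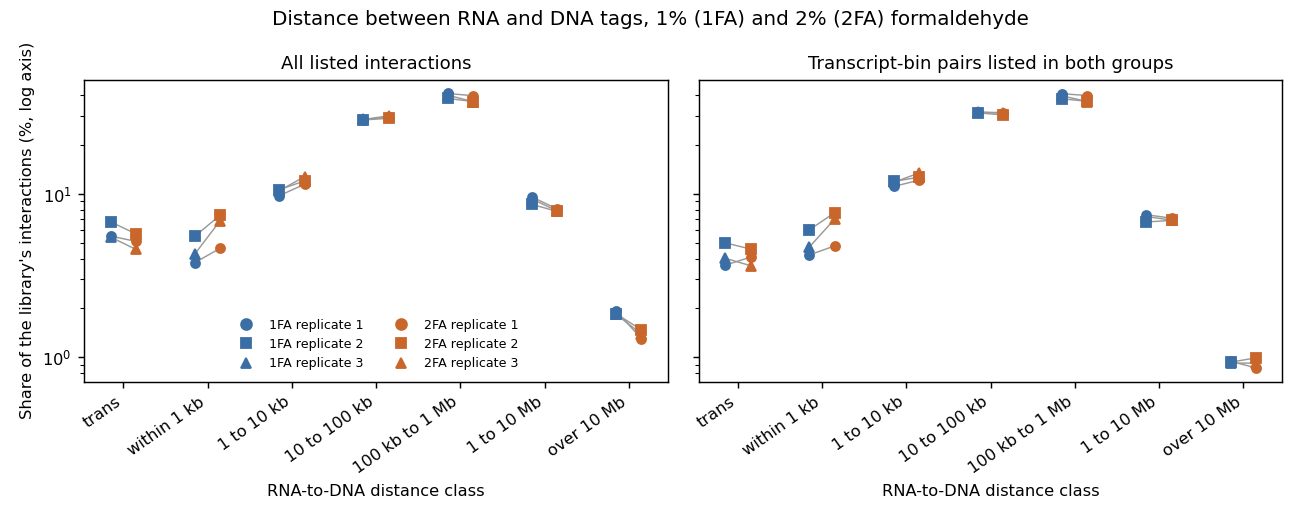
The share of each library's interactions in 7 distance classes, in percent on a log axis, over all listed interactions (left) and over contacts on both lists of pairs (right), with grey lines joining libraries of the same replicate number. On the left the class beyond 10 Mb separates the groups (1.83% to 1.92% against 1.30% to 1.47%), and on the right it does not.

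The shift was spread over many transcripts. Of 4523 transcripts with at least 20 far (over 100 kb) and 20 near interactions per library in the mean, 4140 (91.5%) had a lower ratio of far to near in 2FA, with a median log2 difference of -0.32. The test called 1665 (36.8%), of which 1652 were lower (36.5%) and 13 higher (0.287%), and 1045 (23.1%) without the pairing of libraries, with 1035 lower (22.9%). Eif4a2, a translation initiation helicase, had 37.02%, 24.6% and 31.1% of its cis interactions beyond 100 kb in 1FA and 10.2%, 2.78% and 4.22% in 2FA (log2 difference -2.97 ± 0.21), from 107, 41 and 83 and then 14, 3 and 7 far interactions. The mitotic kinesin gene Kif23 had 34.7%, 33.6% and 30.4% and then 12.8%, 10.5% and 3.85% (log2 difference -2.38 ± 0.27), from 41, 37 and 42 and then 11, 8 and 4. Mtfr1 (-2.96), the chromatin remodeller gene Chd1l (-2.25) and 2610507B11Rik (-2.11) were the others of the 5 largest falls. All 5 reached the minimum of 20 far interactions through 1FA alone, so their values are given with no test, and none of the 5 had enough far contacts in pairs on both lists to be tested there. The 1665 calls include these 5 and any others that reached the minimum in the same way. The largest rises were Grpel2 (1.01), BC065397 (0.78), Ube2w (0.69), Dpp6 (0.67) and Arhgef2 (0.62). Ube2w and Dpp6 rose in pairs 1 and 2 and not in pair 3, Grpel2 was not tested in pairs on both lists, and none of the other 4 was called there (limma adjusted p of 0.686 to 0.723). Over pairs on both lists, 3072 of 3877 transcripts (79.2%) still had a lower ratio, but the median was -0.12 and Malat1 was the only call (0.0258%, with 275 transcripts at an unadjusted p under 0.05).

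On the DNA side, 1751 of 47261 bins of 25 kb were called (3.7%), 608 higher (1.29%) and 1143 lower (2.42%) in 2FA, and 405 (0.857%) without the pairing of libraries. Among the called bins with a mean of at least 100 interactions and the same direction in every pair, 45 rose and 60 fell. Their share of all bins tested at that minimum was not computed. The largest rise was at chr16:48600001-48625000 (mm10), with 100, 71 and 73 interactions in 1FA and 114, 101 and 150 in 2FA (log2 fold change 0.80 ± 0.15, adjusted p = 0.00125), of which 80.6% came from the RNA of Morc1, a gene of germ cell development. Bins led by the RNAs of Ifrd1 (0.74), Fbxo15 (0.66), the survival gene Bcl2l1 (0.61) and Sox2ot, which overlaps the pluripotency gene Sox2 (0.61), followed on the log2 scale. The largest fall was a bin at chr10:81025001-81050000 with 144, 128 and 120 interactions in 1FA and 82, 71 and 55 in 2FA (log2 fold change -0.70 ± 0.15, adjusted p = 0.00359). It was reached by 16 RNAs, and Sgta, the first of them, gave 26.3% of its interactions. The other falls, led by Gm26551 (-0.64), Sptan1 (-0.64), Sbno2 (-0.63) and Taok1 (-0.62), were reached by 10 to 19 RNAs, whereas the 5 rises were reached by 5 to 12. Over pairs on both lists none of 44640 bins passed (2738 at an unadjusted p under 0.05 by limma), and the 10 bins named here kept their direction. Those counts are a part of the ones on which the bins were chosen, so the direction is not an independent check.

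Contacts between chromosomes gave the highest share of called bins, but these calls cannot be told apart from differences between the lists of pairs. Counted on these contacts alone, 994 of 5855 bins were called (17%), 494 higher (8.44%) and 500 lower (8.54%) in 2FA. These bins were not fitted over pairs on both lists. Malat1 and Gm22973 supplied most of these contacts in every library, between 89.7% and 94.7% together. Of the bins listed with Gm22973, 9256 in 1FA and 9437 in 2FA, 6609 were shared. Of those listed with Malat1, 5670 and 2520, 1636 were shared. Where an RNA and a bin are missing from a group's list, no contact of that RNA is counted there. The minimum of 10 interactions in 3 libraries can be met by a single group. How many of the calls only reflect the lists was not tested.

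Differences between transcripts varied with base composition in pairs 2 and 3 and, for gene length, set apart the longest class. Among 9837 transcripts grouped into 5 equal parts by the GC content of their RNA tags, the median log2 fold change was 0.07 in the lowest part, with a median GC content of 42.8%, and -0.14 in the highest, with 54.8%. Calls went the same way, with 84 higher and 34 lower in the lowest part and 5 higher and 153 lower in the highest, compared with 1.96% higher and 3.17% lower over all transcripts. The highest part also had the fewest interactions, with a median of 39.4 per library against 94.5 in the lowest. Spearman's rho between log2 fold change and GC content was -0.25 over the 9837 transcripts, which share libraries and are not independent, and it was -0.02, -0.25 and -0.32 in pairs 1, 2 and 3. Over pairs on both lists it was -0.19. The mean GC content of all RNA tags was 48.6%, 47.6% and 47.4% in 1FA and 48.0%, 47.4% and 47.0% in 2FA, lower in each pair, while that of the DNA tags went up in the first pair (45.6% to 46.8%) and down in the third (44.5% to 43.5%).

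**Figure D5:**
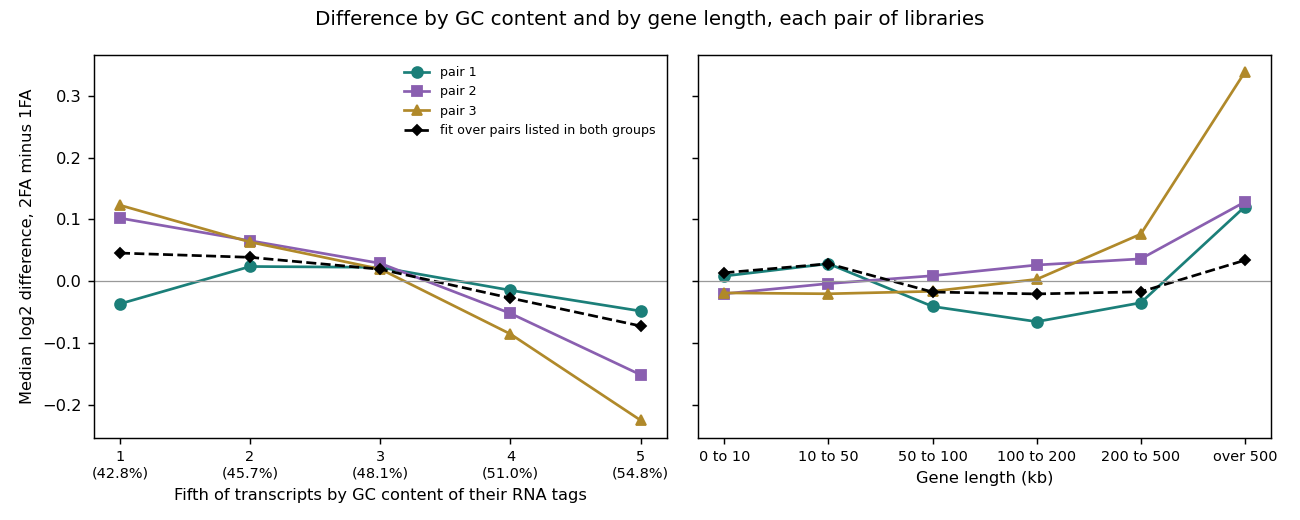
Median log2 difference in interactions per transcript, 2FA minus 1FA, for 5 equal groups of transcripts ordered by the GC content of their RNA tags (left, median GC in brackets) and by gene length in kb (right), for each pair of libraries (coloured) and for the fit over pairs listed in both groups (black, dashed). The lines for pairs 2 and 3 fall from left to right with GC content, the line for pair 1 stays between -0.05 and 0.02, and all 3 pairs are highest for genes over 500 kb.

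Genes longer than 500 kb stood out among the rises. Of 159 tested, 29 were higher and 3 lower, beside 1.96% and 3.17% over all transcripts, with a median of 0.19, and 74.2% had a positive value compared with 49.9% of all transcripts. Shorter length classes had medians between -0.02 and 0.03. The median for these long genes was 0.03 in pairs on both lists, and their tags had a median GC content of 43.4% compared with 48.1% over all transcripts. Apart from chromosomes M and Y, with 2 and 4 transcripts tested, medians were lowest on chromosomes 11 (-0.11) and 19 (-0.10) and highest on X (0.10). Of 807, 321 and 237 transcripts tested on these, 58, 15 and 3 were lower and 4, 0 and 9 higher, beside 3.17% lower and 1.96% higher over all transcripts. GC content was that of the captured tags and so depends on the region captured. In 1FA, CDS tags had a mean GC content of 53.6% and intron tags of 47.1%. The groupings by GC content, length and chromosome were made after the data had been seen, and the parts of GC content, length and tag region were not separated.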

How the data were processed

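Per the labels, the authors aligned tags with BWA 0.7.15-r1140 to mm10 after base calling with CASAVA 1.8. Per the methods, RNA tags were assigned by strand to GENCODE M14 genes and each combination of transcript and 25-kb bin was tested by a one-sided binomial test. The deposited p-value of a pair was computed on the pooled replicates of a group, and pairs past the authors' threshold are listed. The other deposited columns used are tag positions, gene, class and region, with 1 or more lines per interaction, so no deposited column is a count. Lines of the same interaction were merged, which left 2667971 interactions from 2841875 lines in the first 1FA library.

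Here, interactions were counted per transcript, bin, region and distance class. Transcripts and bins needed at least 10 interactions at the median library size in 3 libraries and 15 in all. Counts were scaled by TMM factors (0.968 to 1.02), turned into log2 CPM with a prior count of 0.5 and fitted with limma 3.58.1 under R 4.3.3 (intensity trend, two-sided, Benjamini-Hochberg over all features, calls at an adjusted p under 0.05). Ratios of far to near, or of CDS to intron tags, were fitted likewise on log2((a + 0.5)/(b + 0.5)) with at least 20 of each. The replicate number was a block. The methods do not say that equal numbers in the 2 groups mark the same batch. Libraries of equal number were treated as pairs from the outset, and this was then checked: deviations from the group means of same-numbered libraries correlated at 0.50, 0.39 and 0.58 over 5780 transcripts (other combinations -0.53 to 0.02) and at 0.17, 0.22 and 0.46 over 18172 bins (other combinations -0.36 to 0.20, the highest being 1FA replicate 2 with 2FA replicate 1). Shares were compared by exact permutation tests, whose smallest p is 0.25 with pairs and 0.1 without. Since the replicates of a group share 1 list of pairs, their spread understates that of separately called libraries.

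On simulated counts with 200 features changed, 100% (log2 size 1) and 80% (log2 size 0.5) of the changed transcripts were recovered with 3.23% false calls, and 98% and 34% of the changed bins with 5.71%. Simulated distance ratios gave 96% and 51% with 3.29%. The changed features were drawn from those above a higher minimum count than the fits need, and the dispersion set for bins was 0.001. The simulation held no lists of pairs, so these rates do not cover features with low counts or the effect of the lists. Symbols and positions are from GENCODE M21 (15219 of 15243 Ensembl identifiers matched) and sequences from RefSeq GRCm38.p6. Named transcripts are the 12 largest rises and 12 largest falls among calls with a mean of at least 100 interactions and 1 direction in all pairs, the 10 most captured, and called or most captured members of the gene lists; for bins and distance, the 5 largest each way. Members, lists and tests were chosen with earlier results of these data known. A called list member is not reported here by name.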

Additional observations from a re-analysis of the deposited data

How the results depend on the processing

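The number of calls depended on the pairing of libraries and on the lists of pairs. Without the replicate block, 3 transcripts were called (Malat1 and, named after their values were seen, Sema6d and Astn2, 1136 at an unadjusted p under 0.05), 405 bins, 1045 transcripts for distance and 0 for the CDS or 5′ untranslated ratio. With only pairs on both lists, 8 transcripts, 0 bins and 1 transcript for distance remained past the threshold, and with that and no block 0, 0, 0, 0 for CDS and 0 for the 5′ untranslated region. Without the filter on low counts there were 3163 transcripts (1597 higher and 1566 lower), 11544 bins (4258 and 7286) and 2957 transcripts for distance (329 and 2628). Bins numbered 2866 without own-gene interactions, 1157 in thinned libraries and 994 on contacts between chromosomes; distance gave 762 calls without own-gene interactions and 530 with a border of 1 Mb. Leaving out each pair of libraries gave 199 to 1042 transcripts, 382 to 3287 bins, 681 to 1775 for distance, 0 to 240 for CDS, 0 to 2 for the 5′ and 0 to 2 for the 3′ untranslated region, with the fewest without the third pair for all but the untranslated regions. Scaling by the total moved the median of all transcripts from 0.00 to 0.04 and the calls to 260 higher and 230 lower.

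Directions of shares reversed as follows, in percentage points of 2FA minus 1FA. Without Malat1 the difference was 0.228 for contacts between chromosomes, 0.235 for exon tags, 0.0647 for long noncoding RNA and -0.373 for coding transcripts. Without Malat1 and Gm22973 it was 0.0754 for long noncoding RNA, -0.0398 for other noncoding RNA and -0.0475 for coding transcripts, and without the 10 most captured transcripts 0.0418, -0.0423 and -0.0119. The 10 to 100 kb class gave -0.526 in pairs on both lists, and other noncoding RNA ran between -0.0954 and 0.578 when a pair of libraries was left out. Among transcripts named here, 4 that were not called changed sign. The log2 fold change of transcript Gm22973 ran from -0.088 to 0.24 when a pair of libraries was left out and was -0.0045 in pairs on both lists, with or without the replicate block. That of transcript Wwox ran from -0.16 to 0.0087 and was 0.024 without own-gene interactions, and that of transcript Arl15 ran from -0.14 to 0.058 and was 0.032. That of transcript Rmrp was 0.32 in pairs on both lists, with or without the replicate block, and 0.21 in cis. All other directions held for the named transcripts, bins, distances and CDS ratios under the alternatives run.

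The comparisons of transcripts, bins and distances depended on the lists of pairs, and pairs on 1 list alone had a median of 9 interactions. The CDS ratio moved little over pairs on both lists (median -0.45 and -0.46). Its calls depended on the pairing of libraries and on the third pair, without either of which no transcript was called. Whether the pairs missing from a list differ in contact or only in the number of reads was not tested.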
